A study of Mus musculus with 4 samples.

Results

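The 40 genes described here are expressed by dividing cells and were taken by symbol from the gene expression features of a CITE-seq series. In CITE-seq, the messenger RNA and the surface proteins of the same single cell are counted together, the proteins through antibodies that carry a DNA barcode. Each of the 40 symbols matched a gene, out of 55385 genes in all. Of these genes, 14 act in S phase, in which DNA is copied, and 25 act in G2 and mitosis, in which the chromosomes are checked, condensed and shared out. Cdk6, a kinase of G1, was kept apart from both groups.

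The spleen cells were taken from 2 mice, of strain C57BL6 and wild-type genotype, kept at steady state. No other genotype and no treatment entered the comparisons, and the labels do not state the age of the animals. Dendritic cells were enriched by negative selection, and sorted cDC1 and cDC2 were pooled with unsorted live cells, so the numbers of cells per class are set by the sort and not by the spleen. Conventional dendritic cells take up antigen in tissues and present it to T cells, cDC1 mainly to CD8 T cells and cDC2 mainly to CD4 T cells. Barcodes carried 2 suffixes, called library 1 and library 2 here. Nothing says which mouse or label replicate each library holds. The p-values given here reflect how far differences between classes vary from one library to the other, a variation that may be technical.

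After filtering, 12179 cells of library 1 and 15960 cells of library 2 remained, with medians of 6949 and 6882 RNA UMIs per cell (UMIs are single counted molecules). The libraries held 99617992 and 129565040 RNA UMIs, and 61 barcode sequences occurred in both, 41 of them among the kept cells. A cDC was called cDC1 where its XCR1 antibody count was above that of CD172a, and cDC2 in the reverse case. Maturing cDCs switch on Ccr7, the receptor that guides them to T cell zones, and later Fscn1, which bundles actin. Late cDC1 had at least 5 Ccr7 and 2 Fscn1 UMIs, and intermediate cDC1 had at least 2 Ccr7 and at most 1 Fscn1 UMI. Cells with at most 1 UMI of each were Ccr2-high with at least 3 Ccr2 UMIs, and otherwise immature. Libraries 1 and 2 held 242 and 342 Ccr2-high, 5994 and 8983 immature, 199 and 244 intermediate, and 122 and 134 late cDC1. No member gene set a gate. Ccr7 and Fscn1 levels are set by these gates. Outside the gates, Il4i1, an amino acid oxidase of mature dendritic cells, stood at 1297 and 1323 CPM (UMIs per 1000000 RNA UMIs of the class) in late, 201 and 196 CPM in intermediate and 3.07 and 2.57 CPM in immature cDC1. The cDC2 gate was less clean: Xcr1 RNA, a cDC1 gene, stood at 138 and 176 CPM in immature cDC2 against 490 and 564 CPM in immature cDC1 and 15.99 and 24.3 CPM in T cells. The part of such RNA in the cDC2 results was not tested.

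Entry into S phase is driven by cyclin D with Cdk4 or Cdk6, which release E2F factors from the retinoblastoma protein, and E2F factors switch on replication genes. Genes of G2 and mitosis are switched on later through CHR and CCAAT elements, bound by the MuvB complex with B-Myb and FoxM1 and by NF-Y. Conventional dendritic cells arise from bone marrow precursors that seed the spleen, divide there a limited number of times and stop dividing as they mature.

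Promoter sequences show how the S-phase and mitotic groups differ in DNA. RefSeq promoters (GRCm38.p6, 250 bases before to 50 after the start) were matched for 34 of the 40 members, 13 of S phase, 20 of mitosis and Cdk6. TTTGAA or TTCGAA, the CHR letters, occurred on either strand in 16 of 20 mitotic windows (80%), in 2 of 16 S-phase windows (12.5%) and in 19.2% of all 32851 windows of that length. CCAAT occurred in 18 of 20 mitotic windows (90%), in 10 of 16 S-phase windows (62.5%) and in 37.4% of all windows. Both a CHR and at least 2 CCAAT occurred in 13 of 20 mitotic windows (65%), in 1 of 16 S-phase windows (6.25%) and in 2.27% of all windows. For E2F, the octamers TTTCCCGC, TTTCGCGC, TTTGCCGC and TTTGGCGC were searched on both strands. They occurred in 6 of 16 S-phase windows (37.5%), in 1 of 20 mitotic windows (5%) and in 2.26% of all windows. Matches of 1 motif that overlapped were counted once, and a match is a description of letters, not of binding.

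The following 3 mitotic promoters are examples that held both motifs, printed 5′ to 3′ with CHR and CCAAT matches in capitals. They lie at chr2:164769679-164769978 on the plus strand (Ube2c), chr11:99024140-99024439 on the minus strand (Top2a) and chr5:30666636-30666935 on the plus strand (Cenpa).
Ube2c: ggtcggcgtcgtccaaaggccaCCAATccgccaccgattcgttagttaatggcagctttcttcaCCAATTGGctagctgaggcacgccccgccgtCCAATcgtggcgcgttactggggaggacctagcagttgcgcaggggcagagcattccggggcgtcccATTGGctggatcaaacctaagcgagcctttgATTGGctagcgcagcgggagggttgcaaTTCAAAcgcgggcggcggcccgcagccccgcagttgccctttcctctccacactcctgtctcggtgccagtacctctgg
Top2a: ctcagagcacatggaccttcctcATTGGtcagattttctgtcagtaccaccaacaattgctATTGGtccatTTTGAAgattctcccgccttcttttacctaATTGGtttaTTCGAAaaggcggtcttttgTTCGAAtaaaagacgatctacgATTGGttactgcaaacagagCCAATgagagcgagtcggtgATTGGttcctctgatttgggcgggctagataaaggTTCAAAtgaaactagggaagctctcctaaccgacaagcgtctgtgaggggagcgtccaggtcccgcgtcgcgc
Cenpa: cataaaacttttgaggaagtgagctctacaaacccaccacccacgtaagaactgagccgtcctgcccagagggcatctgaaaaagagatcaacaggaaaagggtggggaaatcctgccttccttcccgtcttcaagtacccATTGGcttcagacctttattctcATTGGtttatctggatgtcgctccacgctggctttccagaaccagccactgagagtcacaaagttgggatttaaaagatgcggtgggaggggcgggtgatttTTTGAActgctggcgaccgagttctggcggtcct
The following 3 S-phase promoters are those with the most matches to the E2F octamers, which are in capitals. They lie at chr1:20820263-20820562 (Mcm3), chr1:128359656-128359955 (Mcm6) and chr5:138171834-138172133 (Mcm7), each on the minus strand.
Mcm3: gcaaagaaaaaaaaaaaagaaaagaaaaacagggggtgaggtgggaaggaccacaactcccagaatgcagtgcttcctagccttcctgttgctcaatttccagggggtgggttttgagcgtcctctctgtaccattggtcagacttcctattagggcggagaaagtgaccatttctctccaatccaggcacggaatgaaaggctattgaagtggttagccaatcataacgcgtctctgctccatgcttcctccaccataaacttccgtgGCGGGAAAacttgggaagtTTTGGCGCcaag
Mcm6: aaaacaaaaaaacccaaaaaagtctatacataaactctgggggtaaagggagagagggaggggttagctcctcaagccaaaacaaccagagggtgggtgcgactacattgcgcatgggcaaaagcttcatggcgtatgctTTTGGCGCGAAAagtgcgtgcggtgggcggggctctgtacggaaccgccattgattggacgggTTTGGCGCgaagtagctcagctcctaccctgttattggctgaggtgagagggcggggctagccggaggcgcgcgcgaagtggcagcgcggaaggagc
Mcm7: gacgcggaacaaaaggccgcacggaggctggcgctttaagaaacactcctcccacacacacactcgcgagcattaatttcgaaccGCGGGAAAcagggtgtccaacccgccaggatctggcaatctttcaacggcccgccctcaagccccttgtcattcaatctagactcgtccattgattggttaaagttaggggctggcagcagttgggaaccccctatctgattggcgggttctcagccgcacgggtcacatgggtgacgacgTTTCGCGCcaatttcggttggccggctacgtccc
Top2a held 4 CHR and 6 CCAAT matches in 300 bases, whereas Mcm3 and Mcm6 each held 2 E2F matches and no CHR match. Mcm7 held 2 E2F matches and also 1 CHR and 3 CCAAT matches. Mcm3 held 3 and Mcm6 2 CCAAT matches. In the S-phase sequences these matches are not in capitals.

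Summed over the group, S-phase transcripts were highest in the progenitors and lowest in late cDC1. In such sums, fewer dividing cells and less RNA per dividing cell cannot be told apart. The 14 S-phase members together reached 1039 and 1010 CPM in Ccr2-high cDC1, 927 and 753 CPM in immature, 530 and 431 CPM in intermediate, and 98.1 and 167 CPM in late cDC1. The 25 mitotic members together reached 2125 and 2308 CPM, 1321 and 1117 CPM, 421 and 728 CPM, and 137 and 469 CPM in the same order. The libraries of neighbouring stages did not overlap for either sum except that the mitotic sum of late cDC1 in library 2 lay above that of intermediate cDC1 in library 1. Within cDC1, the highest mean level was in Ccr2-high cells for 13 of 14 S-phase and 25 of 25 mitotic members, Pcna being the exception, and the lowest was in late cells for 14 and 23. Across all fitted classes, late cDC1 were the lowest for 14 of 14 S-phase members, while the lowest class for mitotic members was B cells for 14 and late cDC1 for 11. Many of these B cell levels rest on 3 or fewer UMIs. In B cells 3 counts equal 8.89 and 7.33 CPM, against 3.50 and 3.17 CPM in late cDC1. For such members the order of B cells and late cDC1 is not resolved.

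**Figure D1:**
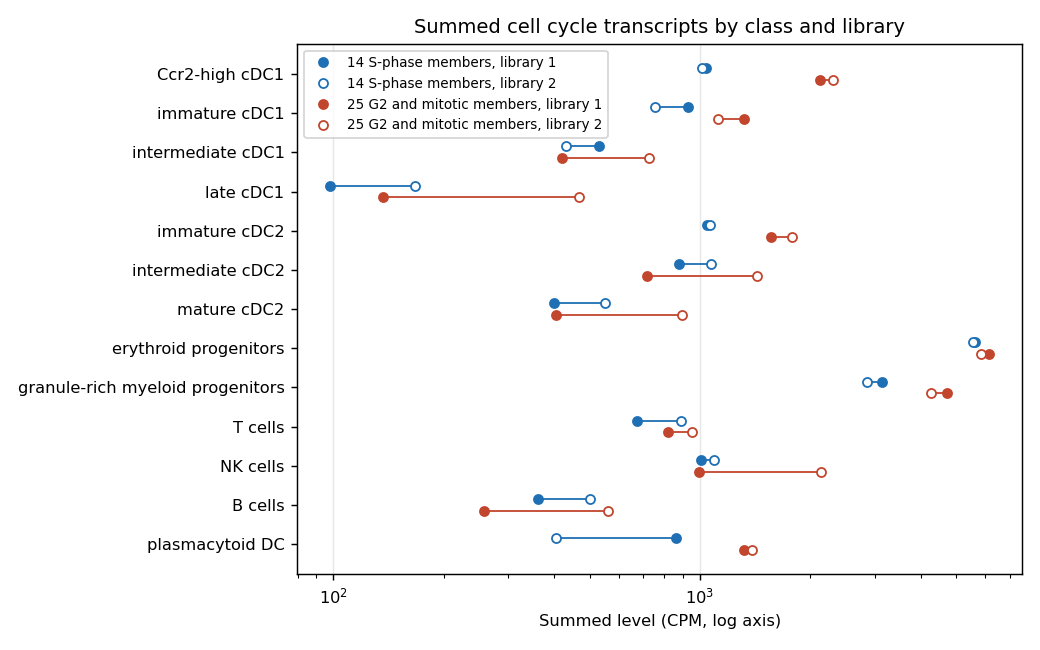
Summed level of the 14 S-phase members (blue) and the 25 G2 and mitotic members (red) in CPM on a log axis, for each class of cells; filled points are library 1, open points library 2, and lines join them. With the gates set in UMIs, both sums within cDC1 step down from Ccr2-high to immature, intermediate and late cells, and late cDC1 sit at 98.1 and 167 CPM for S phase.

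With the gates set in UMIs, mitotic members were higher in Ccr2-high than in immature cDC1, which did not hold with gates set per 7000 UMIs of a cell. In edgeR's quasi-likelihood test over 10818 genes, with Benjamini-Hochberg adjustment and a threshold of 0.05, 22 of 25 mitotic members were higher in Ccr2-high cells, against 3.73% of all genes tested. Of the 14 S-phase members 0 were higher by edgeR and 0 by DESeq2, with 4 at an unadjusted p under 0.05. The medians of the log2 change were 0.84 for mitotic members, 0.20 for S-phase members and -0.04 for all genes. Hmmr, a receptor for hyaluronan that also binds spindle microtubules, stood at 44.0 and 51.6 CPM against 21.8 and 17.6 CPM. Its change was 1.19 ± 0.21 (log2 ± SE, n = 2 libraries; edgeR adjusted p = 9.6e-05). Ccnb1, the cyclin that drives entry into mitosis with Cdk1, stood at 46.0 and 44.3 CPM against 21.0 and 19.0 CPM, with no overlap between the classes. Nusap1, a microtubule binding protein of the spindle, stood at 66.8 and 54.3 CPM against 30.2 and 26.1 CPM, a change of 0.98 ± 0.14.

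Other kinases and regulators of mitosis moved the same way. Plk1, a kinase of spindle assembly and mitotic exit, stood at 24.8 and 29.3 CPM against 13.0 and 10.4 CPM, and Aurkb, the kinase of the chromosomal passenger complex, at 45.2 and 41.2 CPM against 24.2 and 18.4 CPM. Cdc20, an activator of the anaphase-promoting complex, rose by 1.03 ± 0.19 on the log2 scale, and Cenpf, a kinetochore protein, by 1.11 ± 0.26. The 3 mitotic members that missed the threshold were Bub1, a checkpoint kinase (0.21 ± 0.22), Mki67, the antigen of the Ki-67 stain (0.53 ± 0.18, edgeR adjusted p = 0.052), and Stmn1, which destabilises microtubules (0.54 ± 0.19, edgeR adjusted p = 0.059). In 25 of 25 mitotic members the Ccr2-high libraries lay above both immature libraries, and this held for 9 of 14 S-phase members and for 36.5% of all genes tested. The difference between the mitotic and S-phase groups was not tested. The S-phase members ran from Pcna, the replication clamp, at -0.20 ± 0.11 to Pclaf, a factor bound to that clamp, at 0.38 ± 0.19.

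Of 41 other mitosis genes, 27 were higher in Ccr2-high cells by edgeR's test, against 3.73% of all genes tested, led by Aspm, a spindle pole protein, at 22.0 and 24.2 CPM against 8.77 and 8.78 CPM. Of 34 other replication genes, 1 was higher, near that background, the maintenance methyltransferase Dnmt1 at 58.1 and 57.7 CPM against 41.7 and 35.5 CPM. Foxm1, the transcription factor of the mitotic genes, rose by 0.82 ± 0.20, and the G1 cyclin gene Ccnd3 by 0.44 ± 0.09. With the gates set per 7000 UMIs of a cell instead of in UMIs, 0 of 25 mitotic members were called and their median was -0.02. Under those gates the S-phase median was -0.38, and 4 S-phase members were lower in Ccr2-high cells by edgeR's test, Rrm2 (-1.30), Pclaf (-0.86), Lig1 (-0.76) and Pcna (-0.52). With no filter on low counts Pcna was also called lower (-0.43). With the gates in UMIs, 14 mitotic members were called higher with cells thinned to 3000 UMIs, and 2 with DESeq2.

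Maturation to the late stage came with lower levels of the S-phase genes. By edgeR's test, 14 of 14 S-phase members were lower in late than in immature cDC1, against 24% of all genes tested, with a median log2 change of -2.52 against -0.18 for all genes. Pclaf stood at 4.67 and 23.2 CPM in late cells against 160 and 123 CPM in immature cells. It fell by 3.08 on the log2 scale (SE 0.42, edgeR adjusted p = 1.2e-07). Lig1, the ligase that joins Okazaki fragments, stood at 1.17 and 8.44 CPM against 49.0 and 41.2 CPM. Pcna stood at 33.9 and 38.0 CPM against 146 and 117 CPM and showed the smallest fall of the group, -1.63 ± 0.19.

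Helicase and nucleotide genes of S phase moved with them. Mcm3, a subunit of the replicative helicase, stood at 9.34 and 13.7 CPM in late cells against 70.6 and 63.6 CPM in immature cells, and Mcm7, another subunit, fell by 2.55 on the log2 scale (SE 0.38). Dut, the dUTPase that keeps uracil out of DNA, stood at 15.2 and 21.1 CPM against 135 and 107 CPM. Some members were nearly absent in late cells. Rrm2, the regulated subunit of ribonucleotide reductase, had 2 UMIs in late cDC1, a ratio of 0.0312 to immature cDC1 (95% exact counting interval 0.00377 to 0.113). Mcm2 also had 2 UMIs, a ratio of 0.0408 (0.00494 to 0.147). Ung, a uracil DNA glycosylase, had 0 UMIs in late cells against 10.6 CPM in immature cells and was at least 6.35-fold lower, taking 3 counts over the class as the floor. With Ung at that bound the S-phase median stayed at -2.52.

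Mitotic members were lower too, with more spread between the libraries. Of 25, 19 were lower in late cells by edgeR's test, and their median log2 change was -1.57. Spc24, a kinetochore subunit, stood at 2.34 and 9.50 CPM against 54.9 and 46.4 CPM, a change of -2.83 ± 0.41. Ccnb2, a mitotic cyclin, stood at 5.84 and 4.22 CPM against 42.4 and 36.6 CPM, and Stmn1 at 18.7 and 59.1 CPM against 306 and 252 CPM. Top2a, the topoisomerase that untangles sister chromatids, stood at 14.02 and 60.2 CPM against 113 and 101 CPM, so the late libraries lay far apart while both stayed under the immature libraries. The 6 members not called were Mki67, Cdc20, Aurka, Cenpf, Hmmr and Plk1. Mki67 stood at 8.18 and 23.2 CPM in late against 19.1 and 17.9 CPM in immature cells and was the only mitotic member whose libraries overlapped (0.03 ± 0.39). Both late libraries lay below both immature libraries for 14 of 14 S-phase and 24 of 25 mitotic members, and for 53.9% of all genes tested.

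In library 2, a few cells held most of the mitotic RNA of late cDC1. In that library, 3 of 134 late cells carried 81.5% of the 444 mitotic UMIs, 173 of them in a single cell, and in library 1, 3 of 122 cells carried 45.3% of 117. The S-phase UMIs were less concentrated, with 16.7% of 84 UMIs and 38.0% of 158 UMIs in the top 3 cells of libraries 1 and 2. No mitotic UMI was found in 59.0% and 52.2% of late cells, against 33.9% and 37.7% of immature and 21.9% and 23.4% of Ccr2-high cells. Median depth was 6092 and 5974 UMIs in late and 9166 and 8105 UMIs in immature cells.

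Removal of doublets (droplets with more than 1 cell) took a large share of the late class. The caller Scrublet marked 19.2% and 24.7% of late cDC1, against 0.76% and 2.33% of immature cDC1. Of the marked late cells, 9 of 29 in library 1 and 11 of 44 in library 2 carried at least 4 mitotic members, at median depths of 15681 and 12938 UMIs. With the marked cells kept, 12 of 14 S-phase members were still called lower, and the S-phase median was -0.77. Of 25 mitotic members 6 were then called lower, instead of 19. That count was near the 24% of all genes tested that were lower with marked cells removed. Markers of macrophages (6 genes) summed to 189 and 156 CPM in late and 40.1 and 40.8 CPM in immature cDC1, and their part in the result was not tested.

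**Figure D2:**
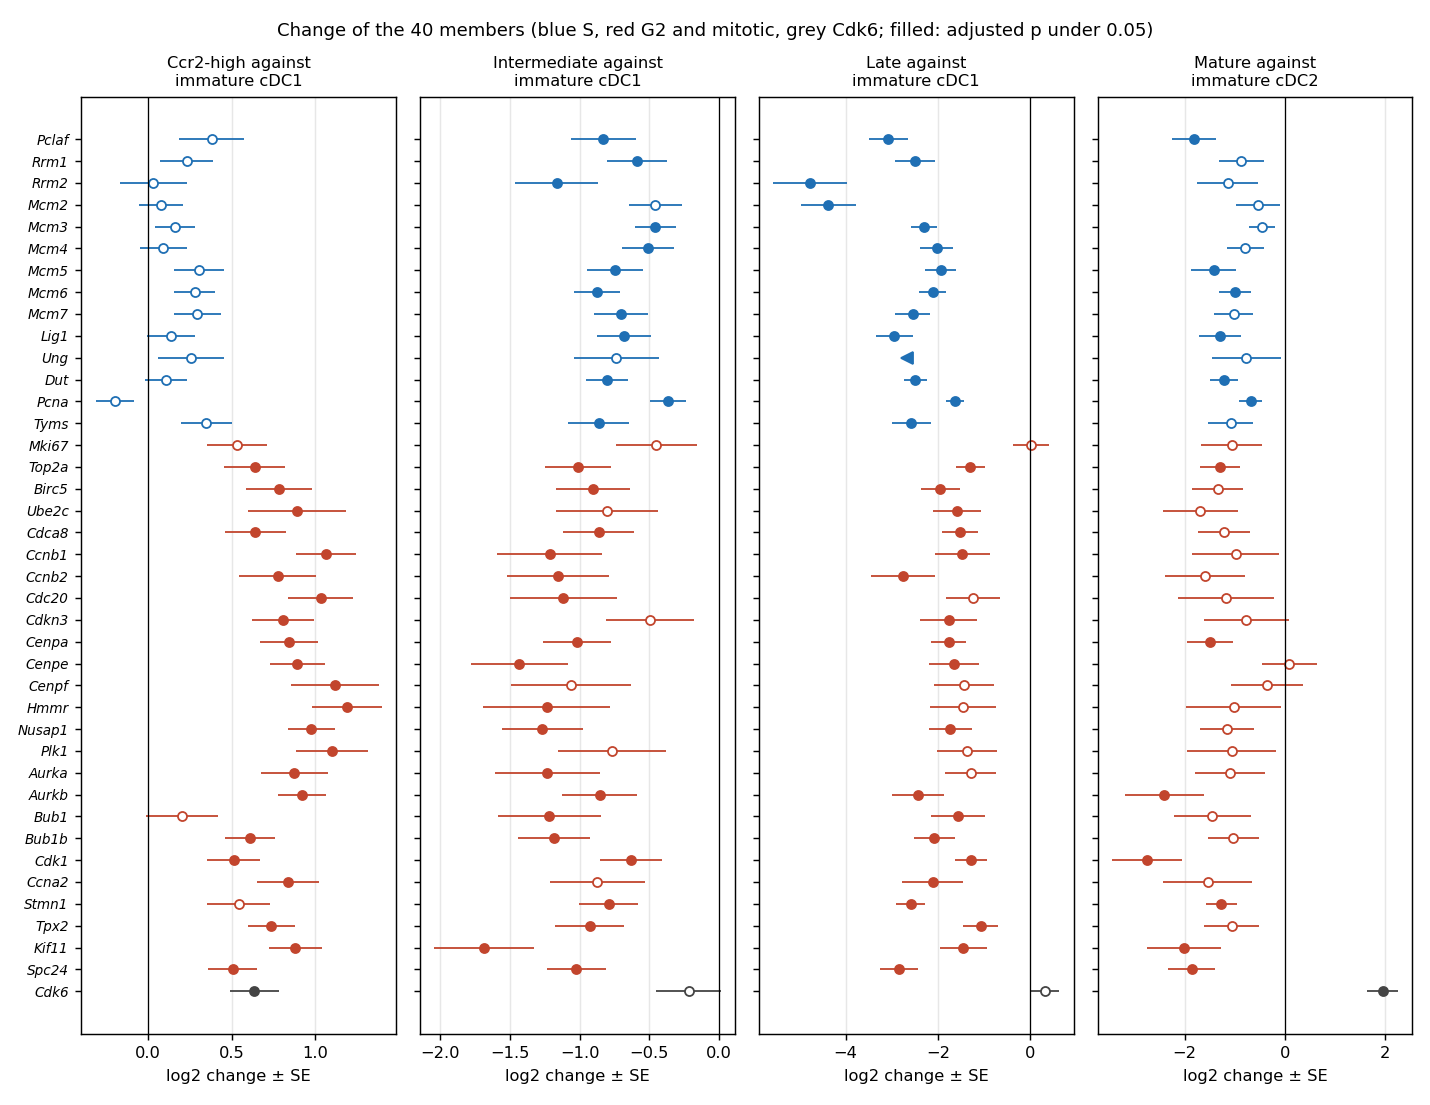
Change (log2 ± SE) of each of the 40 members in 4 comparisons, each panel with its own axis range; filled points passed the adjusted threshold of 0.05, and the arrowhead marks Ung as a bound because it had 0 UMIs in late cDC1. In the panel for late cDC1 the S-phase members lie at -1.63 or lower, while Mki67 and Cdk6 lie near 0.

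Lists of other cell cycle genes were counted beside the members. Of 34 other replication genes 25 were lower in late cDC1 by edgeR's test, and of 41 other mitosis genes 21 were lower, against 24% of all genes tested. Cdc6, which loads the helicase, had 0 UMIs in late cells and was at least 4.92-fold lower. Among 16 tested G1 cyclins, kinases and E2F genes 5 were lower, near the background of 24%, among them Cdk4, the partner kinase of cyclin D, at 24.5 and 25.3 CPM against 89.2 and 75.3 CPM. The single gene of that list that was higher was Ccnd2, a D-type cyclin, at 56.1 and 57.0 CPM against 2.61 and 3.30 CPM. Among 16 tested inhibitors and antiproliferative genes 9 were higher, against 23.4% of all genes tested, and 3 were lower, under the 24% of all genes. Mxd1, which opposes Myc, stood at 856 and 802 CPM against 16.4 and 16.6 CPM. Cdkn1a, the CDK inhibitor p21, stood at 496 and 311 CPM against 16.3 and 15.6 CPM, and Cdkn2b, an inhibitor of Cdk4 and Cdk6, at 21.0 and 30.6 CPM against 0.0706 and 0.13 CPM.

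Intermediate cDC1, with Ccr7 but little Fscn1, already had lower levels. By the same edgeR test, 12 of 14 S-phase and 19 of 25 mitotic members were lower than in immature cDC1, against 12% of all genes tested, with median log2 changes of -0.72 and -1.02 against -0.07 for all genes. Kif11, the motor that pushes spindle poles apart, stood at 2.80 and 8.63 CPM against 23.2 and 19.8 CPM, the largest fall (-1.68 ± 0.36). Cenpe, a kinetochore motor, stood at 6.15 and 10.0 CPM against 26.1 and 23.3 CPM. Among S-phase members, Rrm2 fell by 1.16 and the helicase subunit Mcm6 by 0.87 on the log2 scale, while Mcm2 and Ung did not pass. All 39 S-phase and mitotic members had both intermediate libraries below both immature libraries, as did 50.4% of all genes tested. Mxd1 (248 and 206 CPM), Cdkn1a (212 and 203 CPM) and Ccnd2 (63.8 and 58.6 CPM) were higher than in immature cDC1 by edgeR's test, as were 14.3% of all genes tested. DESeq2 called 7 S-phase and 8 mitotic members, and with doublets kept 4 S-phase members were called.

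Late and intermediate cDC1 were also compared directly, a comparison added after the cell counts were seen. In edgeR's test 14 of 14 S-phase members were lower in late cells, against 13% of all genes tested, with a median log2 change of -1.84 (-1.82 with Ung at its bound). Mcm3 stood at 9.34 and 13.7 CPM against 44.2 and 44.5 CPM, and Dut at 15.2 and 21.1 CPM against 66.6 and 59.1 CPM, with no overlap. Of 25 mitotic members 2 were lower, Spc24 (-1.81 ± 0.52) and Stmn1 (-1.80 ± 0.35), and for 6 of 25 the late libraries lay below both intermediate libraries, a share under the 34.7% of all genes tested. The S-phase count was 7 with gates per 7000 UMIs, 7 with thinned cells and 3 with doublets kept. With doublets kept the mitotic count was 0 and the mitotic median 0.27, above 0.

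Shares of cycling cells were counted per cell. Each cell was thinned to 3000 UMIs, and a cell was called S-positive with at least 4 of the 14 S-phase members detected and mitotic-positive with at least 4 of 24 mitotic members, Stmn1 being left out. Exact binomial 95% intervals cover counting error only, and no test of the shares between classes was run. In immature cDC1, 15.5% (14.5 to 16.4) and 11.7% (11.1 to 12.4) of cells were S-positive, and 13.8% (12.9 to 14.7) and 11.4% (10.7 to 12.1) were mitotic-positive. Ccr2-high cDC1 had 16.9% and 18.8% S-positive and 18.2% (13.5 to 23.6) and 20.8% (16.6 to 25.5) mitotic-positive cells. The mitotic intervals of the Ccr2-high and immature cells did not overlap in library 2 and overlapped in library 1. Without thinning, and over all immature cells, 29.5% and 21.7% were S-positive and 20.2% and 16.8% mitotic-positive. In Ccr2-high cDC1 the mitotic-positive cells had median depths of 15416 and 13520 UMIs before thinning. Ccr2-high cells positive in neither call had 8176 and 7965 UMIs. The part of depth in the Ccr2 gate was not tested.

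With doublets removed, the shares were lower in intermediate and in late cDC1. Intermediate cDC1 had 7.98% (4.53 to 12.8) and 5.22% (2.72 to 8.94) S-positive cells, and 3.72% and 5.22% mitotic-positive cells. In late cDC1, 0 of 116 cells in library 1 were S-positive, which allows a share of up to 2.59% at 3 counts (3.13% by the exact interval), and 1 of 126 in library 2 (0.794%). Mitotic-positive were 1 of 116 (0.862%) and 3 of 126 (2.38%) late cells. With doublets kept, the shares of late cells over both libraries were 5.08% S-positive and 7.62% mitotic-positive, against 0.413% and 1.65% without them. The mitotic-positive share of late cells then lay above that of intermediate cells, 6.08%, which reverses the order of these stages. Of the mitotic-positive immature cells, 47.8% and 45.0% were also S-positive.

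**Figure D3:**
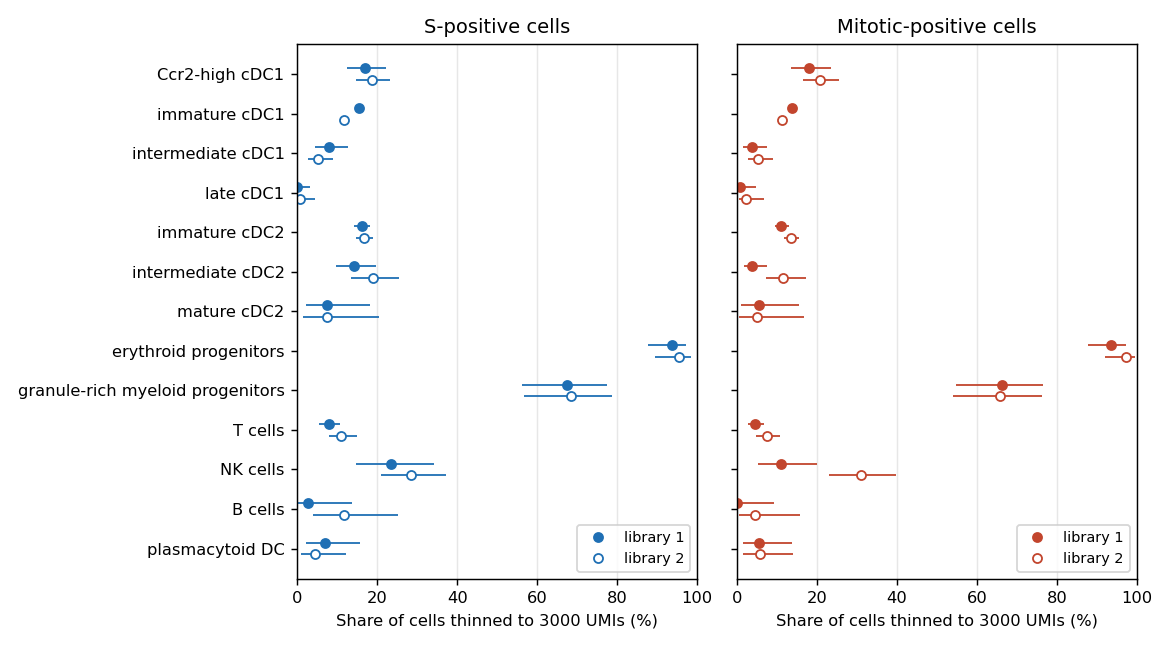
Share of S-positive (left) and mitotic-positive (right) cells in each class, in percent of cells thinned to 3000 UMIs; filled points are library 1, open points library 2, and lines are exact binomial 95% intervals. Erythroid progenitors stand above 90% in both panels, and late cDC1 at 2.38% or lower.

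In cDC2, the same genes were compared at the immature and mature stages. Immature cDC2 had summed levels of 1046 and 1068 CPM for S phase and 1565 and 1787 CPM for mitosis, above those of immature cDC1 in both libraries. S-positive were 16.2% and 16.8% of immature cDC2. Mitotic-positive were 11.2% (9.51 to 13.0) and 13.7% (11.9 to 15.6), below the immature cDC1 share in library 1 and above it in library 2. Thinning left out 13.6% of immature cDC2 in each library, against 4.45% and 4.71% of immature cDC1. Without thinning, 21.7% and 22.4% of immature cDC2 were S-positive, against 29.5% and 21.7% of immature cDC1. Mitotic-positive were then 12.2% and 15.5%, against 20.2% and 16.8%. Median depth was 4576 and 4507 UMIs in immature cDC2, against 9166 and 8105 UMIs. With edgeR, 3 S-phase members (Mcm3, Mcm4 and Mcm7) and 10 mitotic members were higher in immature cDC2 than in immature cDC1, against 21.1% of all genes tested, so the S-phase share was near the background. Mki67 stood at 31.4 and 35.9 CPM against 19.1 and 17.9 CPM, the largest change of the group (0.74 ± 0.12, edgeR adjusted p = 3e-06). Nusap1 stood at 46.3 and 48.6 CPM against 30.2 and 26.1 CPM. The D-type cyclins stood further apart, Ccnd1 at 610 and 614 CPM against 192 and 198 CPM and Ccnd2 at 45.8 and 37.2 CPM against 2.61 and 3.30 CPM. Of 16 tested G1 cyclins, kinases and E2F genes 6 were higher and 0 lower. Of 16 tested inhibitors and antiproliferative genes 8 were higher and 0 lower. Of all genes tested, 21.1% were higher and 2152 of 10818 lower. Among the inhibitors, Cdkn1a stood at 80.0 and 89.6 CPM against 16.3 and 15.6 CPM. The mitotic count was 6 without the library block, 5 with doublets kept and 1 with DESeq2, and DESeq2 called 1 S-phase member. The S-phase median was 0.20, and -0.01 without library 2.

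In mature cDC2, part of the members had lower levels than in immature cDC2. The class was small, with 62 and 54 cells, and Scrublet had marked 18.4% and 28% of it. Xcr1 RNA stood at 94.5 and 221 CPM in mature cDC2, against 126 and 178 CPM in late cDC1. The part of such RNA in the mature cDC2 results, and in the comparison of cDC1 and cDC2 changes, was not tested. In edgeR's test 6 of 14 S-phase and 7 of 25 mitotic members were lower than in immature cDC2, against 9.67% of all genes tested, with medians of -1.01 and -1.21 against -0.15 for all genes. Pclaf stood at 44.3 and 58.0 CPM against 190.5 and 199.98 CPM, Dut at 41.4 and 72.5 CPM against 143 and 138 CPM, and Stmn1 at 145 and 167 CPM against 388 and 433 CPM. Cdk1, the kinase of mitotic entry, stood at 8.86 and 3.62 CPM against 48.7 and 48.0 CPM. Aurkb had 3 UMIs in mature cells, a ratio of 0.172 (95% exact counting interval 0.0354 to 0.506). In mature cDC2, 3 cells of each library held 70.1% and 80.2% of the mitotic UMIs. With thinned cells 2 S-phase and 3 mitotic members were called, with lineage antibodies at least 2-fold apart 2 S-phase members, with doublets kept 4 mitotic members, and with gates per 7000 UMIs 18 mitotic members.

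Cdk6 was higher along with mitotic members in Ccr2-high cDC1 (0.63 ± 0.15, edgeR adjusted p = 0.0029) and did not fall with them in late cDC1. In cDC1 it stood at 29.9 and 23.1 CPM in Ccr2-high, 17.0 and 14.2 CPM in immature, 11.2 and 12.7 CPM in intermediate and 17.5 and 15.8 CPM in late cells. Its change from immature to late cDC1 was 0.33 ± 0.30 and did not pass the test. In cDC2 it stood at 20.1 and 18.5 CPM in immature and 67.9 and 68.9 CPM in mature cells, a rise of 1.95 ± 0.31 (edgeR adjusted p = 6.6e-06), where 12.1% of all genes tested were higher. The classes did not overlap in cDC2.

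The difference between the cDC1 and cDC2 changes was tested with an interaction term. Of the 40 members 3 passed, each with a more negative change in cDC1 than in cDC2, against 0.906% of all genes tested: Mcm3, Mcm2 and Cdk6. For Cdk6 the difference was -1.62 ± 0.39 (edgeR adjusted p = 0.0084), and for Mcm3 it was -1.85 ± 0.42 (edgeR adjusted p = 0.0048). Mcm3 in cDC2 went from 88.1 and 98.2 CPM to 47.3 and 79.7 CPM, which did not pass the test. Of the 25 mitotic members 0 passed by edgeR and 0 by DESeq2, with 2 at an unadjusted p under 0.05. Mcm2 rests on 2 UMIs in late cDC1. With doublets kept no S-phase member passed.

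Progenitors had the highest levels. Erythroid progenitors (130 and 112 cells), chosen by genes such as Klf1 and Gata1, had sums of 5638 and 5564 CPM for S phase and 6157 and 5835 CPM for mitosis. Granule-rich myeloid progenitors (80 and 77 cells), chosen by genes such as Mpo and Elane, had 3134 and 2853 CPM and 4710 and 4257 CPM. All classes being in 1 edgeR fit, 40 of 40 members were higher than in immature cDC1 in each, against 38.1% and 24% of all genes tested. Rrm2 stood at 619 and 562 CPM in erythroid and 310 and 298 CPM in granule-rich progenitors, against 41.2 and 31.5 CPM in immature cDC1. Mki67 stood at 214 and 203 CPM in erythroid progenitors, a change of 3.26 ± 0.11. Pclaf was the single S-phase member with its highest level in the granule-rich progenitors, at 667 and 631 CPM against 456 and 416 CPM in the erythroid ones. Cdk6 stood at 171 and 152 CPM in the granule-rich progenitors, its highest class by mean, and 136 and 161 CPM in the erythroid ones, which overlapped. S-positive were 93.6% and 95.4% of erythroid and 67.5% and 68.4% of granule-rich progenitors, and mitotic-positive 93.6% and 97.2% and 66.3% and 65.8%. Median depth was 18398 and 17435 UMIs in erythroid progenitors before thinning.

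Among lymphocytes, the classes stood apart from each other. T cells (877 and 757 cells) had S-phase sums of 674 and 885 CPM and mitotic sums of 818 and 950 CPM. In edgeR's test against immature cDC1, 5 of 14 S-phase and 21 of 25 mitotic members were lower, against 29.3% of all genes tested, and 4 of 40 members were higher, against 33.4%. The S-phase count was near the share of all genes, and the count of higher members was under it. The 4 were Cdk6 (43.2 and 39.6 CPM, 1.28 ± 0.13), Cenpa, the centromeric histone (134 and 115 CPM against 76.5 and 64.3 CPM), Ung and Mcm4. Bub1b, a checkpoint protein, stood at 5.44 and 9.49 CPM against 23.7 and 20.5 CPM, the largest fall in T cells. The S-phase median was -0.15, and 0.14 without library 1. Under total-count scaling 16 members were lower, and with DESeq2 2 S-phase and 7 mitotic members.

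NK cells (345 and 512 cells) differed between the libraries. Their mitotic sum was 992 CPM in library 1 and 2137 CPM in library 2, and their S-phase sum 1007 and 1093 CPM. By edgeR's test 7 of 40 members were higher in NK cells than in immature cDC1, against 26.2% of all genes tested, and 1, Bub1b, was lower, against 25.7%. Both counts were under the share of all genes. The 7 were Mki67 (28.6 and 50.9 CPM against 19.1 and 17.9 CPM), Nusap1, Stmn1, Mcm4, Mcm6, Pcna and Cdk6. The count for mitotic members was 17 with thinned cells and 1 with DESeq2. The thinned sums left out NK cells under 3000 UMIs, 75.8% of the class. The median log2 change of mitotic members was -1.20 without library 2 and 0.53 without library 1. Without library 2 the changes of Nusap1 and Stmn1 were below 0, at -0.19 and -0.13.

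B cells (127 and 156 cells) had the lowest mitotic sums among lymphocytes, 258 and 560 CPM. With edgeR, 10 S-phase and 20 mitotic members were lower than in immature cDC1, against 17.1% of all genes tested. Cdk6 (0.85 ± 0.36, edgeR adjusted p = 0.064) and Cenpa (edgeR adjusted p = 0.091) had values above 0 that did not pass. Top2a stood at 5.93 and 41.5 CPM against 113 and 101 CPM, and Cdk1 had 2 UMIs, a ratio of 0.0642 (95% exact counting interval 0.00777 to 0.232). Cenpf had 0 UMIs and was at least 8.86-fold lower. With cells thinned to 3000 UMIs 2 S-phase and 7 mitotic members were called. These sums left out B cells under 3000 UMIs, 71.4% of the class.

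Shares in lymphocytes rest on the deeper cells, since many were under 3000 UMIs. T cells had 7.88% and 11.04% S-positive and 4.50% and 7.46% mitotic-positive cells, from 444 of 877 and 335 of 757 cells. NK cells had 23.5% and 28.6% S-positive and 11.1% and 31.0% mitotic-positive cells, from 81 of 345 and 126 of 512 cells. Without thinning, and over all 345 and 512 NK cells, the shares were 6.09% and 10.4%, and 3.48% and 8.40%. These shares cover other sets of cells than the thinned ones, so the gap between them is not an effect of thinning alone. B cells had 1 of 38 and 5 of 43 S-positive cells, and 0 of 38 (a share of up to 7.89% at 3 counts, 9.25% by the exact interval) and 2 of 43 mitotic-positive cells. Nonclassical monocytes had been meant as a class that does not divide, but the gate failed: 12.7% of its cells were mitotic-positive and Xcr1 stood at 172 and 216 CPM in it. It was not used as a background.

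The cells called cycling were then described by genes and proteins that had no part in the call. Immature and Ccr2-high cDC1 were split, per library, into 530 and 604 S-positive cells that were not mitotic-positive, 833 and 1046 mitotic-positive cells and 4606 and 7251 cells that were neither. Called cells were deeper: in immature cDC1 of library 1 the median was 8856 UMIs for neither, 11414 for S-positive and 13114 for mitotic-positive cells before thinning, and in library 2 it was 7923, 10651 and 12033 UMIs. In the S-positive cells 34 of 34 other replication genes and 40 of 41 other mitosis genes were higher by edgeR's test, against 25.1% of all genes tested. In the mitotic-positive cells the counts were again 34 of 34 and 40 of 41, against 30.3%, and the median log2 changes of the mitosis genes were 2.79 and 5.49 in the S-positive and mitotic-positive cells.

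Genes outside the lists were also higher in the called cells by the same test. In S-positive cells Chek1, the replication checkpoint kinase, stood at 21.5 and 26.0 CPM against 1.60 and 1.07 CPM. Brip1, Slfn9, Cenph, Asf1b and Rad54l were also among the leading genes. In mitotic-positive cells Kif14, a motor of cytokinesis, stood at 17.7 and 21.2 CPM against 0.121 and 0.1 CPM, and Esco2, a cohesin acetyltransferase, at 61.8 and 62.9 CPM against 0.774 and 0.484 CPM. Iqgap3, Depdc1a, Mxd3, Shcbp1, Neil3 and Pimreg were the others. The CDK inhibitor genes Cdkn2d (81.5 and 85.5 CPM against 7.96 and 8.59 CPM) and Cdkn2c (45.9 and 43.6 CPM against 5.10 and 6.34 CPM) were also higher in mitotic-positive cells. Of 15 tested inhibitors and antiproliferative genes 7 were higher and 7 lower there, against 30.3% and 27.9% of all genes tested. Trp53inp1 was among the lower ones, at 2.66 and 3.96 CPM against 10.1 and 12.7 CPM.

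As shares of the RNA, markers of cDC1 identity and maturation were lower in the called cells. These cells held more UMIs than the rest, and RNA levels per cell were not compared. Of 7 cDC1 markers 6 were lower in S-positive and 6 in mitotic-positive cells by edgeR's test, against 21.8% and 27.9% of all genes tested. Some of these changes were small, with CPM not lower in library 1. Xcr1 stood at 514 and 534 CPM in S-positive cells against 503 and 581 CPM (-0.08 ± 0.03). Cd8a stood at 410 and 439 CPM in mitotic-positive cells against 408 and 461 CPM (-0.10 ± 0.03). Itgae, the integrin CD103, stood at 14.4 and 13.0 CPM in mitotic-positive cells against 40.6 and 38.9 CPM, a change of -1.61 ± 0.07. Irf8, the transcription factor that specifies cDC1, stood at 2128 and 2256 CPM against 2085 and 2279 CPM and did not pass (-0.05 ± 0.03). Of 6 tested maturation markers 5 were lower in S-positive and 6 in mitotic-positive cells. Cd83, which stabilises surface MHC class II, stood at 667 and 706 CPM in mitotic-positive cells against 960 and 969 CPM. Macrophage markers moved too, with 2 of 6 lower in S-positive and 4 of 6 in mitotic-positive cells. Hmox1, heme oxygenase, stood at 9.41 and 14.1 CPM in S-positive and 11.6 and 6.76 CPM in mitotic-positive cells against 34.2 and 35.3 CPM, and the part of these markers in the result was not tested.

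Surface proteins were tested with cells positive in either call against the rest. Of 170 antibodies 29 were higher (17.1%) and 17 lower (10%) in cycling cells by edgeR's test. CD62L, the L-selectin that guides cells into lymph nodes, stood at 26.6 and 31.5 per 10000 antibody UMIs against 12.4 and 15.4, a change of 1.08 ± 0.05. CD71, the transferrin receptor, stood at 19.5 and 19.7 per 10000 against 10.9 and 11.5, and CD43, a sialomucin, at 121 and 121 against 82.6 and 79.9. CD39, an ATP-degrading enzyme, was lower, at 76.1 and 101 per 10000 against 119 and 149. The other 4 named by size were higher: CD22, CD226, the CD11b antibody listed as CD11b_mh, and CD357. Of 9 isotype controls 1 passed, the mouse IgG1 (-0.68 ± 0.19). Without the library block 0 antibodies were called higher and 0 lower.

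**Figure D4:**
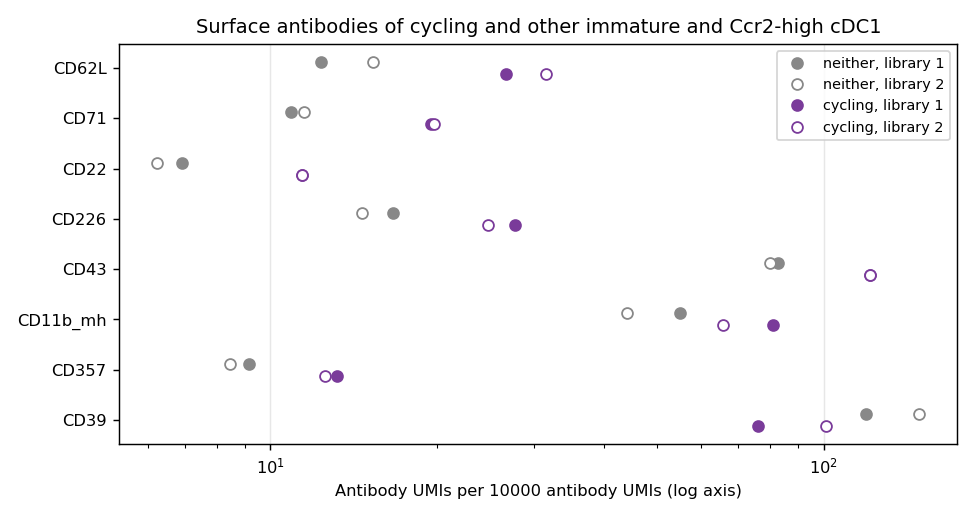
Antibody UMIs per 10000 antibody UMIs (log axis) for 8 antibodies, in cycling (purple) and other (grey) immature and Ccr2-high cDC1. The 8 have the largest changes past the threshold among antibodies with at least 1 UMI per cell. Filled points are library 1 and open points library 2. CD62L stands at 26.6 and 31.5 in cycling cells against 12.4 and 15.4, and CD39 is the antibody that stands lower in cycling cells.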

How the data were processed

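RNA and antibody UMIs were measured in 2 libraries of spleen cells from 2 wild-type mice. The deposited values are unnormalized UMI counts for each cell's genes and antibodies, aggregated over libraries by the authors with Cell Ranger 3.1.0, per the file headers. The submitters' processing notes also name STAR, Seurat 3.1.4 and the build mm10. Aggregation can equalise depth between libraries, and the sources used here do not say whether it did. The 3' counts do not allow levels to be compared between genes.

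Cells with at least 500 genes, 1000 UMIs and at most 10% mitochondrial UMIs were kept, and doublets called with Scrublet (scanpy 1.11.5) were removed (533 and 1080 cells). Of 28139 cells, 23524 fell into classes gated by marker UMIs, 249 had markers of several lineages, 2954 had none and 1412 cDCs fell outside the stage gates. Lineage gates took at least 2 UMIs of Flt3, Zbtb46, Itgax and Wdfy4 for cDCs, at least 3 UMIs of 2 or more marker genes for T, NK, B and erythroid cells, and at least 5 for granule-rich progenitors. UMIs were summed per class and library. Every class that held 30 or more cells per library entered 1 fit with edgeR 4.0.16 (filterByExpr, TMM, quasi-likelihood, library as block), and p-values were adjusted by Benjamini-Hochberg over 10818 genes. All 40 members passed the filter. The library is a block because all classes of a library come from the same library. Over 91 pairs of classes, the correlations of the library differences had a median of 0.0508 (from -0.0853 to 0.39). A log2 change uses TMM and can differ from the ratio of CPM values. The fits were tested on simulated data.

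The named genes are all 40 members, up to 4 genes per list past the threshold with the largest change and at least 5 CPM in a class, the 8 antibodies with the largest change and at least 1 UMI per cell, and 8 other genes with the largest rise and at least 20 CPM, of which some are not reported here. The members, lists and gates were chosen with earlier results of these data known. DESeq2 1.42.0, other scalings, filters, gates and thinning were tried as alternatives.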

Additional observations from a re-analysis of the deposited data

Results flagged for a closer look

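The change from the immature to the late or mature stage differed between cDC1 and cDC2 for 3 members, by edgeR's interaction term with Benjamini-Hochberg adjustment. The difference in log2 change, cDC1 minus cDC2, was -1.85 for Mcm3, -1.62 for Cdk6 and -3.84 for Mcm2. Mcm3 fell in cDC1, and its change in cDC2 was -0.45 and did not pass. Cdk6 rose in cDC2, and its change in cDC1 was 0.33 and did not pass. The Mcm2 value rests on 2 UMIs in late cDC1 and is not a measure of size. With doublets kept no S-phase member passed.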

How the results depend on the processing

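The classes of late cDC1 and mature cDC2 hold few cells, and library 1 and library 2 are the only replicates, so leaving out either gives values with no test. Depth limits members at 3 or fewer UMIs in a class, for which ratios or bounds are given. Of the counts, medians and shares recomputed, 591 stayed on their side, 192 moved and 17 changed direction; of the values of single genes or antibodies, 3953 stayed, 315 were weaker, 150 stronger, 432 moved and 20 changed direction. The cause was not tested for any of these.

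With DESeq2, 2 mitotic members were higher in Ccr2-high cDC1, 7 S-phase and 8 mitotic members lower in intermediate cDC1, 1 S-phase and 1 mitotic member higher in immature cDC2, 2 S-phase and 7 mitotic members lower in T cells and 1 mitotic member higher in NK cells, and 5 S-phase members passed the interaction. With RLE size factors, 3 S-phase members were lower in T cells and 5 mitotic members higher in NK cells, whose mitotic median was 0.055.

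With total counts alone, 2 S-phase members were higher in Ccr2-high cDC1, 8 in immature cDC2 and 5 in NK cells, with 5 mitotic members and a mitotic median of 0.24 there, and 2 S-phase members were lower in T cells. This scaling moved the median of all genes from -0.18 to -0.41 in late and from -0.07 to -0.21 in intermediate cDC1, from -0.04 to 0.08 in Ccr2-high cDC1, and from -0.15 to -0.28 in mature cDC2. The share of all calls that were higher moved from 49.4% to 37.1% in late, from 54.3% to 33.7% in intermediate and from 38.3% to 68.1% in Ccr2-high cDC1, from 51.4% to 69.4% in immature and from 55.6% to 44.5% in mature cDC2, from 79.4% to 68.4% in the interaction, from 50.5% to 64.6% in NK cells and from 49.4% to 62.7% in B cells.

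Without the replicate block, 6 mitotic members were higher in immature cDC2, 1562 genes were lower in S-positive cells and 0 antibodies were called higher and 0 lower (12 and 6 at an unadjusted p under 0.05); the block changed no other count of members by over 1.5 times.

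With doublets kept, 5.08% of late cDC1 were S-positive and 7.62% mitotic-positive, against 6.08% mitotic-positive intermediate cDC1. In that setting 6 mitotic members were lower in late cDC1, 4 S-phase members in intermediate cDC1 and 4 mitotic members in mature cDC2, 5 mitotic members were higher in immature cDC2 and 1 S-phase member in NK cells. Against intermediate cDC1, 3 S-phase and 0 mitotic members were then lower in late cDC1, the mitotic median was 0.27, and the changes of Mcm7 and Rrm2 were 0.057 and 0.30. In the interaction 0 S-phase members passed, with medians of 0.012 for S-phase and 0.015 for mitotic members.

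With gates per 7000 UMIs, 0 mitotic members were higher in Ccr2-high cDC1, with medians of -0.38 for S-phase and -0.020 for mitotic members. Of the S-phase members, 4 passed as lower there by edgeR's test, Rrm2 (-1.30, adjusted p = 0.0022), Pclaf (-0.86, adjusted p = 0.0072), Lig1 (-0.76, adjusted p = 0.011) and Pcna (-0.52, adjusted p = 0.013). Changes below 0 that did not pass were -0.40 for Bub1b, -0.088 for Ccna2, -0.020 for Ccnb1, -0.11 for Cdca8, -0.32 for Cdk1, -0.13 for Cenpe, -0.11 for Kif11, -0.39 for Spc24, -0.26 for Top2a and -0.43 for Tpx2. These gates gave 6 S-phase and 1 mitotic member in the interaction, 7 S-phase and 1 mitotic member lower in late against intermediate cDC1 with a mitotic median of 0.18, and 18 mitotic members lower in mature cDC2, where Cenpe changed by -2.08. With lineage antibodies at least 2-fold apart, 2 S-phase members were lower in mature cDC2 and 5 mitotic members higher in NK cells, with a median of 0.012.

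With no filter on low counts, the S-phase median was -0.035 in Ccr2-high cDC1, where Pcna was lower (-0.43, edgeR adjusted p = 0.0012), and -0.28 in NK cells, where Pcna changed by -0.046 and 0 S-phase and 1 mitotic member were higher. Mcm4 changed by -0.015 in T cells, in which 11 S-phase members were lower. In that setting 1 S-phase member was higher in immature cDC2, 6 S-phase and 2 mitotic members passed the interaction, 11 mitotic members were lower in late against intermediate cDC1, and 12 S-phase and 22 mitotic members were lower in mature cDC2. With the stricter cell filter, 5 S-phase and 6 mitotic members were higher in NK cells (mitotic median 0.31), and 2 S-phase and 12 mitotic members were lower in T cells.

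With cells thinned to 3000 UMIs before summing, 14 mitotic members were higher in Ccr2-high cDC1, and 10 S-phase and 17 mitotic members in NK cells (mitotic median 1.22). Lower were 1 S-phase and 9 mitotic members in T cells, 2 and 7 in B cells, 2 and 3 in mature cDC2, and 7 and 1 in late against intermediate cDC1, and 1 mitotic member passed the interaction. These sums left out cells under 3000 UMIs, which were 75.8% of NK, 71.4% of B and 52.3% of T cells and 19.8% of mature cDC2. For the shares over both libraries, no thinning gave 24.8% S-positive and 18.1% mitotic-positive immature and 3.13% S-positive late cDC1. Thinning to 2000 UMIs gave 9.58% and 10.1% of immature cDC1, and to 5000 UMIs 19.0% and 15.7%, with 1.60% S-positive late cDC1. A call from at least 3 genes gave 17.7% and 14.4%, with 1.24% S-positive late cDC1, and from at least 6 genes 7.65% and 9.24%.

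Leaving out library 1 or library 2 moved the mitotic median in NK cells between -1.20 and 0.53, the S-phase median there between -0.23 and 0.31, and Nusap1 and Stmn1 there between -0.19 and 1.10 and between -0.13 and 1.06. The S-phase median ranged from -0.53 to 0.14 in T cells and from -0.0050 to 0.36 in immature cDC2.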
